A study of Mus musculus with 14 samples.

Results

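To assess which circulating miRNAs differ after a survivable dose of radiation, the miRNA cargo of plasma extracellular vesicles (EVs) was compared between mice given 2 Gy of whole-body irradiation (WBIR) and sham mice. The comparison covered the mouse miRNA probes with a mean of at least 10 counts over the 9 samples of these groups. Of 566 mouse probes on the panel 424 were below this limit, the highest of them at 9.89 counts, and the rest, the members, comprised 20 miRNAs that rose at 2 Gy, 1 that fell and 121 that did not pass the test. Over all probes tested, which include a few for viral miRNAs, 13.5% were higher and 1.35% lower. The lowest member had a mean of 10 counts. All mice were female C57BL/6J animals, 6 to 8 weeks old, and no transgene or drug is named for either group. The 5 irradiated samples came from mice exposed to a cesium-137 source, with EVs taken 3 days later, and the 4 sham samples came from mice that were not irradiated. The other 5 of the 14 samples in the series were given 9 Gy and are not described here. The labels name no collection day for the sham mice, and they do not say whether each sample came from 1 mouse, so the p-values measure the spread between these samples only. The EVs were the pellet of a differential centrifugation of plasma, and the labels name no cell of origin. In such bulk samples, fewer EVs from one kind of cell and less of a miRNA in each EV cannot be told apart.

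miRNAs are short RNAs that pair with messenger RNAs through a seed near their 5′ end and lower the output of those messengers. Blood cells, platelets and other tissues release them into plasma in EVs, where the miRNAs of red cells and leukocytes are usually among the most abundant. In the nCounter assay each miRNA is ligated to a tag, hybridised to a color-coded probe and counted by an imager, so a probe's count follows both the amount of miRNA and the yield of the ligation.

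Mature sequences of 13 of the 21 miRNAs that rose or fell were held in the RefSeq miRNA table used here (GRCm38.p6). The sequences are written 5′ to 3′ with the seed, bases 2 to 8, in capitals. Probe names without an arm were paired with the arm to which older miRBase releases gave that name. The first set holds, of those in the table, the 5 with the largest rise and the 1 that fell.
miR-376a: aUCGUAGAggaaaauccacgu
miR-136: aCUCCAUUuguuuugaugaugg
miR-539: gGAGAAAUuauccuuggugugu
miR-377: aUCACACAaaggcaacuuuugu
miR-664: uAUUCAUUuacuccccagccua
miR-142-5p: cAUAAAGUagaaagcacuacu

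The first 4 of these lie on the plus strand of chromosome 12 in the imprinted Dlk1-Dio3 domain, a region from which the maternal chromosome expresses a large group of miRNAs. miR-136 is at chr12:109595331-109595352, inside the span of Rtl1. miR-376a is at chr12:109723824-109723844, miR-539 at chr12:109728136-109728157 and miR-377 at chr12:109740553-109740574, none of them inside another gene of the table. miR-664 is at chr1:185243012-185243033, inside the spans of Rab3gap2 and of the small nucleolar RNA Snora36b. miR-142-5p is at chr11:87756867-87756887. The gene table gives whole spans, so exons and introns were not separated.

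The second set shows miRNAs that share a seed, since members with 1 seed were not all called alike. miR-16 and miR-15a rose while miR-15b did not pass the test, and let-7e rose while let-7f and let-7g did not pass. Differences between miRNAs with 1 seed were not tested. miR-15a lost its call in several settings and let-7g gained one without 2 Gy replicate 3, as given below.
miR-16: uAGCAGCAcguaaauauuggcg
miR-15a: uAGCAGCAcauaaugguuugug
miR-15b: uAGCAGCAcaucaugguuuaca
let-7e: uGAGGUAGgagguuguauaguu
let-7f: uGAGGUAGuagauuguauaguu
let-7g: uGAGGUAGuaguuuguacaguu

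miR-16 has a copy at chr14:61631936-61631957 beside miR-15a (chr14:61632075-61632096), both inside the long noncoding RNA Dleu2 on the minus strand, and a copy at chr3:69009918-69009939 beside miR-15b (chr3:69009775-69009796), both inside Smc4 on the plus strand. The mature miR-16 of both copies is the same, so the probe reads them together. let-7e is at chr17:17830366-17830387, inside Spaca6. The 13 changed miRNAs with a sequence held 12 distinct seeds, and the only seed present more than once was AGCAGCA of miR-16 and miR-15a.

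The control probes were examined first, because the ligation yield differed between the groups. The ligation positive controls are synthetic RNAs that pass through the ligation step with the sample, and their geometric mean was 3121, 2458, 1998, 2148 and 1935 counts in the 2 Gy samples 1 to 5. In the sham samples 1 to 4 it was 633.8, 207.6, 400.6 and 136.3 counts. Every 2 Gy sample was above every sham sample, and the ratio of the group geometric means was 7.88, a difference of 2.98 on the log2 scale. The exact permutation test gave a two-sided p of 0.00794, the smallest this design allows, and an adjusted p of 0.0222 over 14 control values. The 3 probes differed in the same direction, with 5.89-fold for LIG_POS_A, 8.22-fold for LIG_POS_B and 10.1-fold for LIG_POS_C.

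The controls that need no ligation did not differ beyond their spread. The hybridisation positive controls had a geometric mean of 988 ± 114 counts at 2 Gy (SD, n = 5) and 1064 ± 89.6 in sham (SD, n = 4), with an exact permutation p of 0.333. The median of the 8 negative controls was 7.60 ± 0.652 counts at 2 Gy (SD, n = 5) and 8.0 ± 1.22 in sham (SD, n = 4), with an exact permutation p of 0.611. One of these probes, NEG_C, stood apart from the other 7 in both groups, at 49.2 ± 12 counts at 2 Gy (SD, n = 5) and 48.0 ± 15.1 in sham (SD, n = 4). The 33 probes for miRNAs of mouse viruses, which these mice were not stated to carry, averaged 7.03 ± 0.399 counts at 2 Gy (SD, n = 5) and 8.28 ± 1.47 in sham (SD, n = 4), with an exact permutation p of 0.135. The ligation negative controls had 6.6 and 7.0 counts, so probes without a target did not follow the ligation controls.

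**Figure D1:**
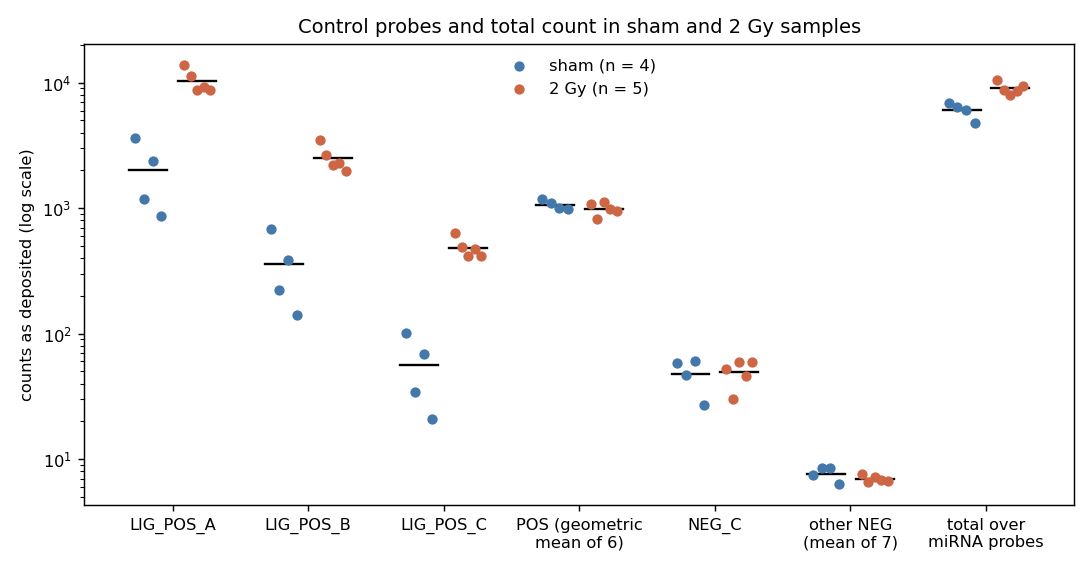
Counts as deposited (log scale) of the control probes and the total over the miRNA probes in 4 sham and 5 2 Gy samples. Each point is 1 sample and each line a group mean. The ligation positive controls and the total are higher in all 5 2 Gy samples, with a ratio of 7.88 for the ligation geometric mean, while the hybridisation and negative controls overlap.

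Total counts over the 599 miRNA probes were 9046 ± 919 at 2 Gy (SD, n = 5, range 8019 to 10455) and 6042 ± 911 in sham (SD, n = 4, range 4781 to 6926), with an exact permutation p of 0.00794. Without miR-376a and miR-136 the totals were 5590 ± 346 at 2 Gy (SD, n = 5, range 5135 to 5957) and 6006 ± 899 in sham (SD, n = 4, range 4761 to 6875), and the exact permutation p was 0.421. The counts of most members were low, since 115 of them had a mean under 20 counts and 3 had a mean of at least 100.

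To compare each miRNA, counts were divided by a size factor of the sample, computed with the trimmed mean of M values (TMM), which takes most probes as unchanged. The result is called a scaled count below, and fold changes are log2 differences of 2 Gy minus sham from the quasi-likelihood fit of edgeR. A miRNA rose or fell when its adjusted p, over all members and the 6 viral probes that passed the limit, was under 0.05. The 121 members that did not pass had log2 fold changes between -0.73 and 1.57 and a median SE of 0.27. The median log2 fold change of all members was 0.06, and 84 of them had the higher mean at 2 Gy.

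The scaled counts of the groups did not overlap for 24 probes, 16.2% of those tested, all of them members. These were miR-142-5p, 19 of the 20 that rose, all but miR-15a, and 4 that did not pass the test, named after their values were seen. In scaled counts miR-146a and miR-762 were higher in every 2 Gy sample and miR-337-5p and miR-467a were lower, while the counts of all 4 as deposited overlapped. Among the 19 risers, the counts of miR-16, let-7e and miR-466d-3p as deposited overlapped as well. Of the 20 that rose, 11 reached the limit of 10 mean counts only through the 2 Gy samples, as did 16 of all members, so that the limit itself favoured a difference for these. The other 9 had means of at least 10 counts in both groups.

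**Figure D2:**
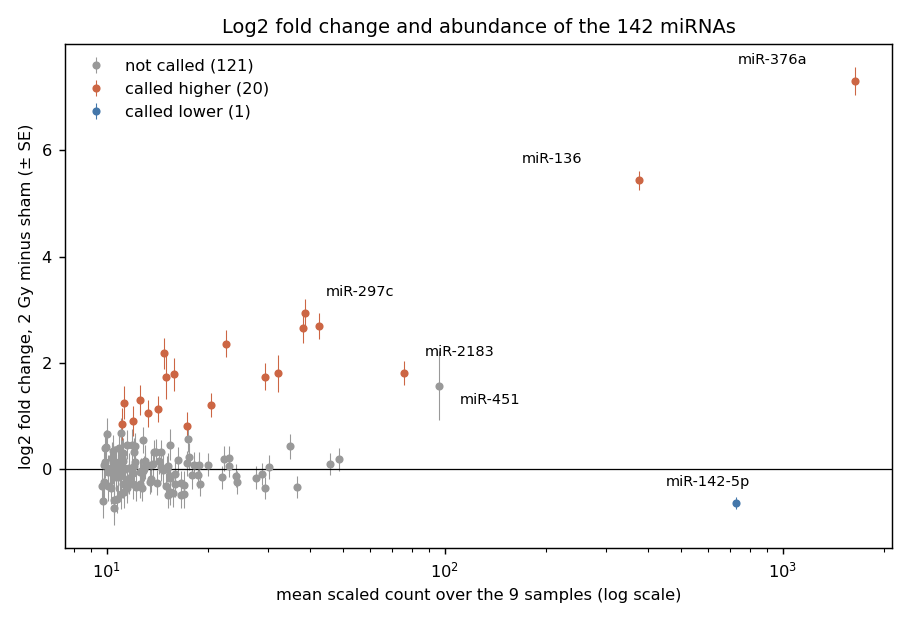
Log2 fold change, 2 Gy minus sham, with its SE (y axis) against the mean scaled count over the 9 samples (x axis, log scale) for all members. The 20 that rose are in orange, the 1 that fell in blue and the 121 that did not pass in grey. miR-376a and miR-136 stand far above the rest, at 7.30 and 5.44, and scaling to the ligation controls would move the median of all members from 0.06 to -3.01.

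The split of calls depended on what was taken as constant. The main scaling gave 20 higher and 1 lower. The geometric mean of the 100 highest miRNAs gave 16 and 24, the total count gave 12 and 82, and the ligation controls gave 2 and 135. Of the 20 risers under TMM, 13 passed as lower with the ligation controls and 5 did not pass. The median log2 fold change of the members moved from 0.06 to -0.33, -0.65 and -3.01 under these, so the miRNAs near 0 under TMM moved together to the lower side. The hybridisation controls gave 19 and 0, with a median of 0.03. miR-376a and miR-136 rose under each of these scalings.

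**Figure D3:**
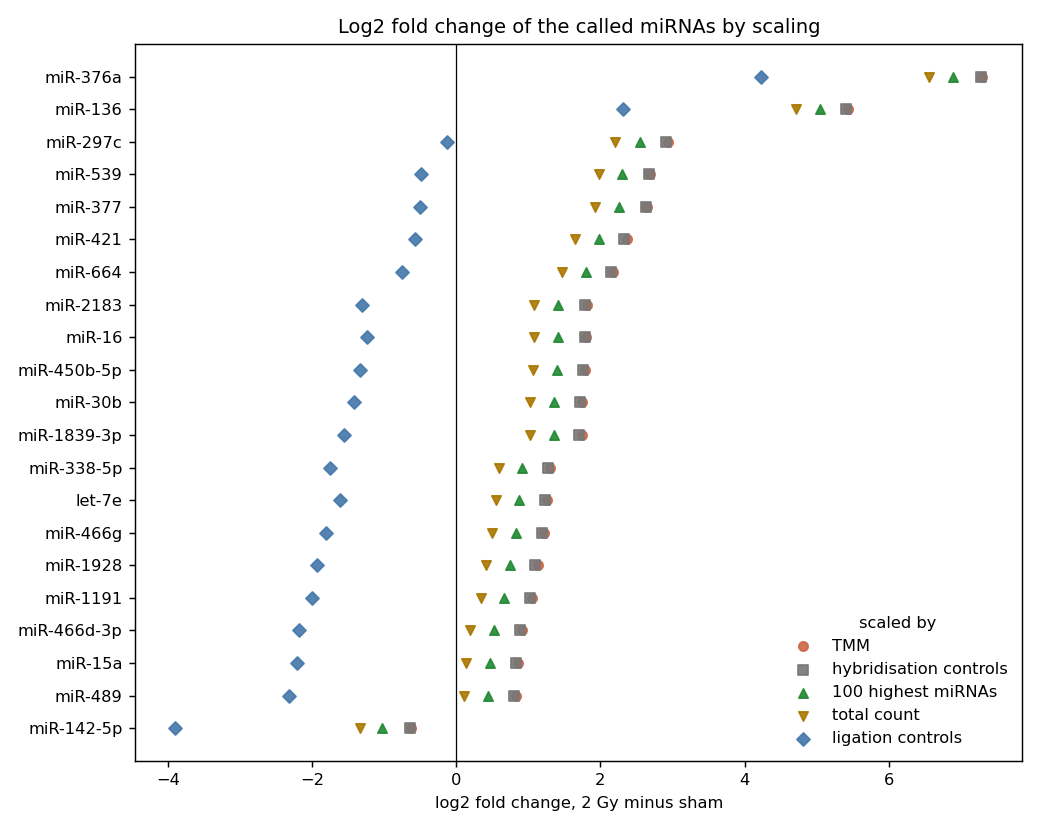
Log2 fold change, 2 Gy minus sham, of the 21 miRNAs that passed the test, computed with each of 5 scalings (marker shapes in the legend). TMM and the hybridisation controls nearly coincide, the 100 highest miRNAs and the total count lie lower, and the ligation controls place all but miR-376a and miR-136 below 0.

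The largest changes were in miR-376a and miR-136, both of the Dlk1-Dio3 domain. miR-376a belongs to a family of related miRNAs that is transcribed as 1 group with its neighbours, and miR-136 lies opposite the imprinted gene Rtl1. miR-376a had 3703, 3008, 1789, 2732 and 2853 counts in the 2 Gy samples 1 to 5, and 31, 20, 19 and 10 counts in the sham samples 1 to 4. Its scaled counts were 2929 ± 702 at 2 Gy (SD, n = 5) and 18.2 ± 5.03 in sham (SD, n = 4), a ratio of 161. The log2 fold change was 7.30 ± 0.27 (SE), with an adjusted p of 2.0e-11 in edgeR. It rose from 0.321% ± 0.0977 of the miRNA counts in sham (SD, n = 4) to 30.8% ± 5.16 at 2 Gy (SD, n = 5). The lowest 2 Gy sample, replicate 3, was still far above the highest sham sample. After the median negative control was subtracted from each sample, the ratio was 276.

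miR-136 had 795, 628, 584, 558 and 633 counts in the 2 Gy samples and 20, 19, 16 and 10 counts in the sham samples. The scaled counts were 663 ± 77.0 at 2 Gy (SD, n = 5) and 15.1 ± 1.98 in sham (SD, n = 4), a ratio of 44.0, and after subtraction of the median negative control the ratio was 87.8. The log2 fold change was 5.44 ± 0.18 (SE), with an adjusted p of 2.37e-28 in edgeR. The 5 irradiated samples were close to each other, and the highest sham sample had 20 counts. Of the 4 sham values, 2 for miR-136 and 1 for miR-376a were at or below the highest of the 7 other negative controls, so both ratios rest on a sham level near the background. With the negative control mean plus 2 SD subtracted, every sham value of both was at the floor of 1 count, so that setting gives no size. Of the 20 that rose, these 2 alone had a log2 fold change above the 2.98 by which the ligation controls differed when no background was subtracted. With the median negative control subtracted, 11 did. Among the 11, miR-297c, miR-539, miR-377, miR-421, miR-664, miR-450b-5p, miR-1839-3p and miR-338-5p then had sham values at a floor of 1 count. The sizes of these in that setting depend on the floor. Scaled to the ligation controls in place of TMM, miR-376a still rose by 4.23 (adjusted p 1.44e-19 in edgeR) and miR-136 by 2.31 (adjusted p 2.62e-09 in edgeR).

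Among the other members of the Dlk1-Dio3 list, miR-539 and miR-377 rose under TMM, though scaling to the ligation controls turned their log2 fold changes to -0.49 and -0.51. miR-539 had 76, 62, 57, 69 and 63 counts at 2 Gy and 8, 14, 13 and 9 counts in sham, and its log2 fold change was 2.69 ± 0.24 (SE, adjusted p 2.49e-12 in edgeR). miR-377 had 110, 53, 41, 43 and 50 counts at 2 Gy and 12, 11, 10 and 8 in sham, and its log2 fold change was 2.65 ± 0.28 (SE, adjusted p 4.03e-10 in edgeR). Both were above all sham samples in every 2 Gy sample, and with the median negative control subtracted their log2 fold changes were 4.23 and 4.43. With the ligation controls as a covariate of the model, 3 miRNAs passed, and these were miR-376a, miR-136 and miR-539. The other 17 risers kept a log2 fold change above 0, from 0.34 to 1.84, and the median SE of the 20 grew from 0.27 to 0.77. Since the ligation controls did not overlap between the groups, this fit cannot separate the dose from the ligation yield. Among the 17, miR-1839-3p was at 1.74, miR-16 at 1.62 and miR-664 at 0.49.

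The panel held 66 probes of the Dlk1-Dio3 list, 64 of which the gene table places between Dlk1 and Dio3. Of these 66, 17 were members, 4 rose, none fell and 13 did not pass. The median log2 fold change of the 17 was 0.02, beside 0.06 over all members, so the 4 risers stood among neighbours near the overall median. The nearest relatives of miR-376a, named here after their values were seen, had log2 fold changes of 0.12 ± 0.31 for miR-376b and -0.01 ± 0.28 for miR-376c (SE). miR-376b had 10.9 ± 6.02 scaled counts at 2 Gy (SD, n = 5) and 10.2 ± 1.41 in sham (SD, n = 4), near the level of the negative controls. Without miR-376a and miR-136, the list's summed scaled counts were 516.2 to 643.8 at 2 Gy and 462.7 to 506.2 in sham. miR-539 and miR-377 carried this gap, since the sums without all 4 risers were 402.7 to 471.2 at 2 Gy and 446.1 to 484.8 in sham and overlapped.

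The families of the Sfmbt2 locus are a large set of repeated miRNAs inside an intron of a gene that is imprinted in mouse placenta. Of 33 probes on the panel, 28 were placed inside Sfmbt2, 14 were members, and miR-297c, miR-466g and miR-466d-3p rose. miR-297c had 88, 71, 47, 51 and 48 counts at 2 Gy and 11, 12, 9 and 3 in sham, with no overlap, and its log2 fold change was 2.93 ± 0.27 (SE, adjusted p 3.55e-12 in edgeR). Of its sham values 2 were at or below the median negative control, and with that background subtracted the log2 fold change was 4.64. miR-466g followed at 1.21 ± 0.22 (SE, adjusted p 3.07e-05 in edgeR) and miR-466d-3p at 0.91 ± 0.28 (SE, adjusted p 0.0181 in edgeR). With the total count miR-466g did not pass (0.50, adjusted p 0.0662 in edgeR). The adjusted p of miR-466d-3p was 0.148 without 2 Gy replicate 1 and 0.0544 without sham replicate 1, and the call was also lost with DESeq2 (0.104), limma-voom (0.0548), the 100 highest miRNAs (0.168), the total count (0.536) and the replicate block (0.0561). The other 11 did not pass, and the list's median was -0.07. Family members are near-identical in sequence, so their probes may share targets, and scaling to the ligation controls reversed all 3.

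A list of 16 miRNAs tied to radiation and DNA damage had 3 members, of which miR-421 rose and miR-101a and miR-101b did not pass. miR-421 is known to target Atm, the kinase that signals DNA double-strand breaks. Its counts were 42, 29, 35, 33 and 32 at 2 Gy and 11, 10, 7 and 1 in sham, with no overlap between the groups. The log2 fold change was 2.36 ± 0.26 (SE), with an adjusted p of 4.03e-10 in edgeR, and it was -0.57 when scaled to the ligation controls and 3.97 with the median negative control subtracted. miR-34a, which p53 induces, was below the limit, with a mean of 5.20 counts at 2 Gy and 9.25 in sham, and miR-34c was listed at 1 in all 9 samples.

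miR-664 and miR-1839 derive from small nucleolar RNA genes. miR-664 had 31, 21, 19, 20 and 19 counts at 2 Gy and 5, 5, 10 and 1 in sham, a log2 fold change of 2.18 ± 0.30 (SE, adjusted p 8.67e-08 in edgeR). miR-1839-3p had 40, 21, 14, 16 and 13 counts at 2 Gy and 3, 9, 6 and 9 in sham, a log2 fold change of 1.74 ± 0.42 (SE, adjusted p 0.00819 in edgeR). In both, 2 Gy replicate 1 was the highest sample, and the sham values lay at or below the highest of the 7 other negative controls. Of the 4 sham values of miR-664, 3 were at or below the median negative control of their sample and the other was less than 1 count above it, so the size of its fold change is not well set. With the median negative control subtracted, the log2 fold changes were 3.79 for miR-664 and 3.38 for miR-1839-3p. When scaled to the ligation controls, both were lower at 2 Gy, by -0.76 and -1.56 on the log2 scale.

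miR-2183 was the third most abundant of those that rose. It had 158, 100, 93, 93 and 96 counts at 2 Gy and 47, 29, 38 and 22 in sham, and its scaled counts were 112 ± 24.4 (SD, n = 5) and 31.5 ± 5.72 (SD, n = 4). The log2 fold change was 1.81 ± 0.22 (SE), with an adjusted p of 7.33e-09 in edgeR, and -1.31 when scaled to the ligation controls. Of the 20 that rose, it alone exceeded the highest of the 7 other negative controls in all 4 sham samples. In all 5 2 Gy samples, 17 of the 20 exceeded it, beside 42 of all members. In sham, 18 of the 20 were at or below it in 2 or more samples. The sham level of most risers was thus close to the background of the assay, as was that of many other members.

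**Figure D4:**
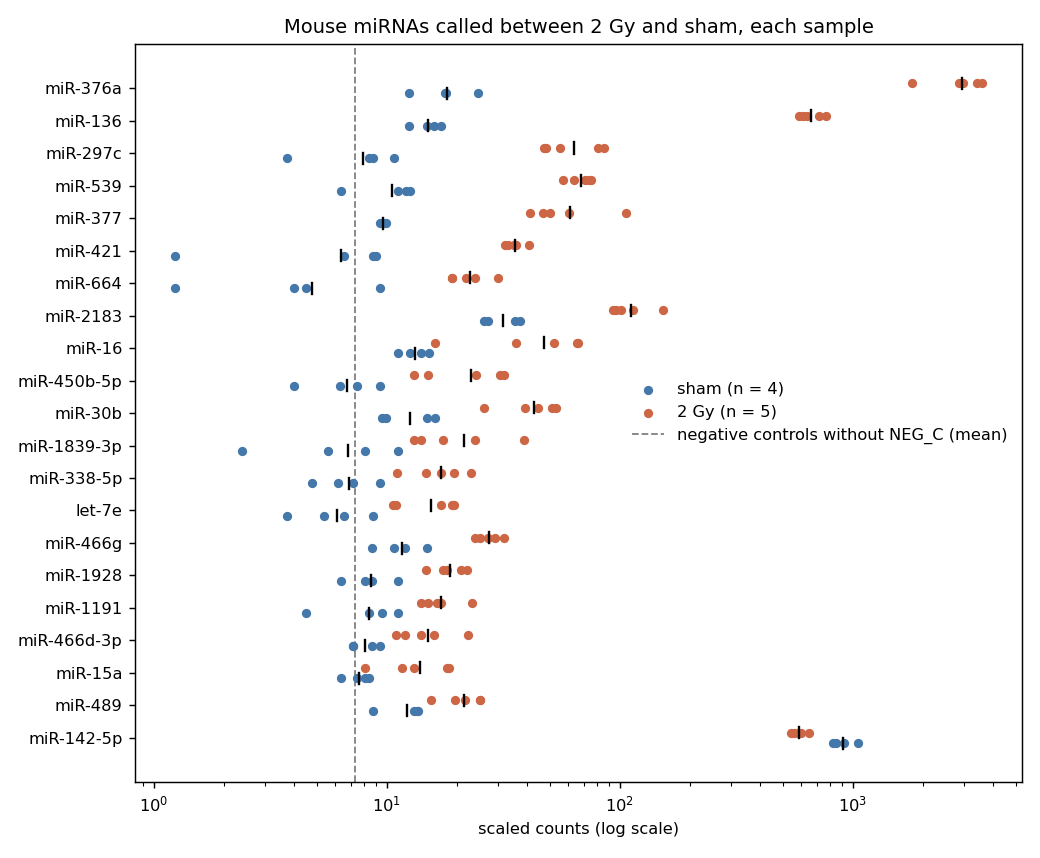
Scaled counts (log scale) of the 21 miRNAs that passed the test, with 1 point for each of 4 sham and 5 2 Gy samples and a black line at each group mean. The dashed line marks the mean of the 7 negative controls other than NEG_C. The sham points of most miRNAs that rose lie near that line, and miR-142-5p, the 1 that fell, lies far to the right of it in both groups.

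Red cell miRNAs varied widely among the irradiated samples. miR-451 is made in red cell precursors without Dicer, and it had 77, 152, 21, 149 and 252 counts at 2 Gy and 48, 71, 53 and 25 in sham. The groups overlapped, with scaled counts of 137 ± 90.5 (SD, n = 5) and 45.6 ± 14.3 (SD, n = 4), and the log2 fold change of 1.57 ± 0.65 (SE) had an adjusted p of 0.234 in edgeR. Without 2 Gy replicate 3, the lowest sample, miR-451 passed, at 1.86 with an adjusted p of 1.05e-06 in edgeR. It also passed with DESeq2 (adjusted p 0.00786), with a mean of at least 30 counts (0.0462) and with the median negative control subtracted (0.0371). Scaled to the ligation controls it passed as lower (-1.60, adjusted p 0.00059 in edgeR). miR-16, abundant in red cells and many others, rose by 1.80 ± 0.36 (SE, adjusted p 0.00134 in edgeR), with 37, 46, 16, 60 and 66 counts at 2 Gy and 19, 14, 15 and 9 in sham. Scaled to the ligation controls, miR-16 was lower at 2 Gy and passed (-1.24, adjusted p 0.0119 in edgeR). 2 Gy replicate 3 was the lowest and replicate 5 the highest irradiated sample for miR-451 and miR-16 alike.

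Of the 6 probes of the red cell list, 4 were members, with a median log2 fold change of 1.02, and miR-16 alone passed. The summed scaled counts of the list ran from 62.2 to 379.6 at 2 Gy and from 68.2 to 105.9 in sham. Of the defining markers, miR-486 had 13.7 ± 5.48 scaled counts at 2 Gy (SD, n = 5) and 9.49 ± 3.48 in sham (SD, n = 4), and miR-144 averaged 6.0 and 5.25 counts, below the negative controls. The part of red cell material in the rise of miR-16 was not tested. miR-15a, which shares the seed of miR-16, had 12, 16, 13, 17 and 8 counts at 2 Gy and 8, 9, 9 and 6 in sham. Its log2 fold change was 0.85 ± 0.29 (SE, adjusted p 0.0407 in edgeR), and it did not pass when 2 Gy replicate 2 or 4 or any 1 of the 4 sham samples was left out, with adjusted p-values of 0.0775 to 0.164. The call of miR-15a was also lost with DESeq2 (0.123), limma-voom (0.136), the hybridisation controls (0.0678), the 100 highest miRNAs (0.239), the total count (0.664) and no filter (0.0897). miR-15b had 15.6 ± 5.49 scaled counts at 2 Gy (SD, n = 5) and 18.7 ± 5.61 in sham (SD, n = 4), and its log2 fold change was -0.29 ± 0.26 (SE, adjusted p 0.644 in edgeR).

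miR-142-5p, made in blood cells of all lineages and abundant in leukocytes, was the only mouse miRNA that fell. It had 577, 479, 644, 549 and 578 counts in the 2 Gy samples and 1029, 1022, 909 and 844 in the sham samples, so that every irradiated sample was below every sham sample before any scaling. The scaled counts were 586 ± 39.3 at 2 Gy (SD, n = 5) and 908 ± 101.4 in sham (SD, n = 4), a log2 fold change of -0.63 ± 0.12 (SE, adjusted p 5.96e-05 in edgeR). Its share of the miRNA counts was 6.31% ± 1.04 at 2 Gy (SD, n = 5) and 15.9% ± 1.3 in sham (SD, n = 4), which includes the gain of miR-376a. The call was lost at an equal log2 fold change of -0.64 with scaling to the hybridisation controls (adjusted p 0.0678 in edgeR) and with the median negative control subtracted (0.181). In the latter setting the 1 member called lower was another miRNA. With the ligation covariate the log2 fold change of miR-142-5p shrank to -0.15 (adjusted p 0.896 in edgeR). The log2 fold change was larger, and passed, with the 100 highest miRNAs (-1.03), the total count (-1.33) and the ligation controls (-3.90), under which the median of all members also moved down. The other arm, miR-142-3p, had 5.80 counts at 2 Gy and 7.0 in sham and was below the limit. A viral probe, mghv-miR-M1-4, was the other tested probe that was lower, at 15.5 ± 3.74 scaled counts against 24.3 ± 4.77, with a log2 fold change of -0.64 (adjusted p 0.0439 in edgeR).

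Of the other lymphocyte markers, miR-150, the main miRNA of resting lymphocytes, averaged 10.8 counts at 2 Gy and 11 in sham, near the negative controls. miR-155, induced in activated lymphocytes, was listed at 1 in all 9 samples, as was let-7a, which most cells make. Since the negative controls read about 7 counts, a constant 1 is not a measured level of either miRNA. Of 8 lymphocyte probes 3 were members, 1 fell and 2 did not pass. The 6 platelet probes gave 2 members and the 3 myeloid probes gave 3, and none of them passed. miR-223, a myeloid and platelet miRNA, had a log2 fold change of 0.68 ± 0.28 (SE, adjusted p 0.138 in edgeR), and without 2 Gy replicate 3 it was 0.86 with an adjusted p of 0.0306. It also passed with the median negative control subtracted (adjusted p 0.0371 in edgeR). Over the platelet list the summed scaled counts were 43.1 to 66.0 at 2 Gy and 36.6 to 50.9 in sham. No liver probe was a member, and miR-122, the main liver miRNA, averaged 4.60 and 3.00 counts. Of 7 muscle probes 1 was a member, miR-208a, which did not pass.

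In the let-7 family, which holds back growth in differentiated cells, 6 of 9 probes were members, let-7e rose and 5 did not pass. let-7e had 11, 17, 17, 10 and 19 counts at 2 Gy and 11, 6, 7 and 3 in sham. The scaled groups did not overlap, with a log2 fold change of 1.26 ± 0.30 (SE, adjusted p 0.00145 in edgeR), which turned to -1.62 under scaling to the ligation controls and did not pass with the total count (0.55, adjusted p 0.115). Of the 4 sham values of let-7e, 3 were at or below the median negative control of their sample, so the size depends on the background. let-7f, the most abundant of the family here, had 47.2 ± 7.60 scaled counts at 2 Gy (SD, n = 5) and 43.9 ± 6.37 in sham (SD, n = 4), a log2 fold change of 0.09 ± 0.20 (SE, adjusted p 0.914 in edgeR). let-7g, named after its values were seen, was at 0.57 ± 0.24 (SE, adjusted p 0.145 in edgeR), and without 2 Gy replicate 3 it passed (0.70, adjusted p 0.0429).

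In the miR-30 family miR-30b rose and miR-30e did not pass, out of 5 probes and 2 members. miR-30b had 53, 47, 26, 41 and 39 counts at 2 Gy and 12, 18, 16 and 8 in sham, a log2 fold change of 1.74 ± 0.25 (SE, adjusted p 2.22e-07 in edgeR). The value was -1.42 when scaled to the ligation controls and 2.75 with the median negative control subtracted. miR-30e was at 10.5 ± 1.72 scaled counts (SD, n = 5) and 10.4 ± 2.35 (SD, n = 4). The miR-17/miR-92 cluster and its paralogs, which promote growth of blood cells, had 5 members of 11 probes and none passed. The most abundant, the probe shared by miR-20a and miR-20b, had a log2 fold change of -0.34 ± 0.20 (SE, adjusted p 0.39 in edgeR).

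**Figure D5:**
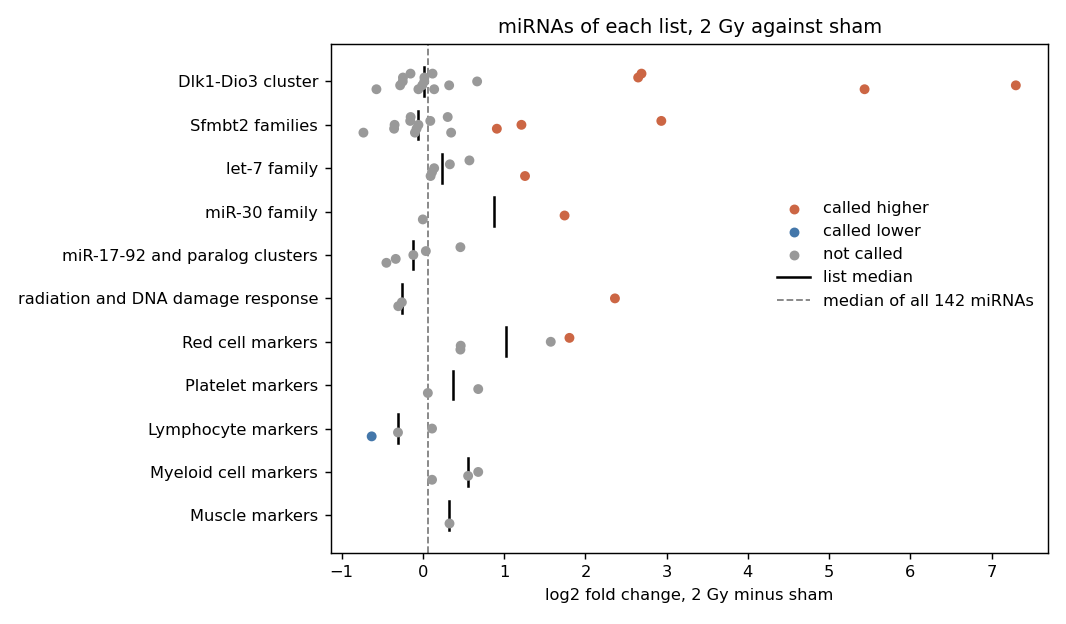
Log2 fold change, 2 Gy minus sham, of the members of each list, with 1 point per miRNA, a black line at the list's median and a dashed line at the median of all members, 0.06. Orange points rose, the blue point fell and grey points did not pass. Each list drawn holds members that did not pass (the liver list had no member), and under scaling to the ligation controls only miR-376a and miR-136 remain above 0.

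Of the other risers, miR-450b-5p, from a cluster on the X chromosome, had 33, 27, 15, 12 and 24 counts at 2 Gy and 5, 7, 10 and 6 in sham, with a log2 fold change of 1.78 ± 0.30 (SE, adjusted p 8.22e-06 in edgeR). miR-338-5p, from within Aatk, had 20, 13, 11, 21 and 17 counts at 2 Gy and 6, 8, 10 and 5 in sham, with 1.3 ± 0.28 (SE, adjusted p 0.000372 in edgeR). For both, 3 of the 4 sham values were at or below the median negative control of their sample and the other was less than 1 count above it, so the sizes depend on the background. They were 3.81 and 3.12 with the median negative control subtracted, where a floor of 1 count stood for the sham level. With the total count, miR-338-5p did not pass (0.59, adjusted p 0.0703 in edgeR). miR-1928, miR-1191 and miR-489 passed with smaller changes of 1.13, 1.05 and 0.82 and were named after their values were seen, as was miR-15a. With the total count, miR-1928 (adjusted p 0.158 in edgeR) and miR-1191 (0.259) did not pass, and miR-1191 did not pass with the 100 highest miRNAs (0.056). Without sham replicate 1, miR-489 no longer passed (adjusted p 0.0801 in edgeR), nor did it with DESeq2 (0.0587), the 100 highest miRNAs (0.179) or the total count (0.682). miR-205, an epithelial miRNA with 51.6 ± 9.76 scaled counts at 2 Gy (SD, n = 5) and 44.9 ± 11.5 in sham (SD, n = 4), did not pass (0.19 ± 0.21, SE).

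The ligation controls were also set beside the risers sample by sample. 2 Gy replicate 1 had the highest ligation controls of the 9 samples and the highest scaled count among the irradiated samples for 11 of the 20 risers, beside 25 of the 121 that did not pass. In sham, sample 4 had the lowest ligation controls and the lowest scaled count for 8 of the 20, beside 36 of the 121, and sample 1, which had the highest of the sham ligation controls, was lowest for 9 and 37. The part of the ligation yield in the risers was not tested beyond the scalings and the covariate given here.

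An exact permutation test of each miRNA, with a smallest possible p of 0.00794, found 29 members with an unadjusted p under 0.05 and none after adjustment, where the smallest value was 0.0691. DESeq2 and limma-voom each called 18 members higher and 1 lower. Of the 18 in DESeq2, 17 were among the 20, the other being miR-451.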

How the data were processed

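EV miRNA was measured with the nCounter mouse miRNA panel v2 in 14 samples, of which 9 were compared. The deposited values are whole-number counts per probe, with control probes present and neither scaled nor background-subtracted. The authors analysed their counts in nSolver 4.0 with settings that are not given in the sources used here. Of 5634 values in the 9 samples, 263 were 1 and none was lower, and whether 0 was written as 1 is not stated. Samples were grouped by title.

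TMM factors were computed over 599 miRNA probes, and probes with a mean of at least 10 counts were tested with the robust quasi-likelihood test of edgeR 4.0.16 in R 4.3.3, with Benjamini-Hochberg adjustment over 148 probes (142 mouse and 6 viral). The script was tested on simulated data. Control values were compared with exact permutation tests (126 arrangements). Other settings used DESeq2 1.42.0, limma 3.58.1, other scalings, filters, background subtraction, a ligation covariate and samples left out in turn, and figures matplotlib 3.10.9.

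Named miRNAs were up to 10 that fell and 15 that rose with the largest change, the 8 most abundant, every miR-142, miR-136 and miR-376a probe, and for each list the called members and the most abundant one. All others, among them miR-15b, miR-30e, miR-150 and miR-486, were named after their values were seen. The members and the lists were chosen with earlier results of these data known. Over the 626 probes, the counts of each of the 16 within-group pairs differed beyond sampling noise (highest chi-square p 0.0202), though over the tested miRNAs alone 4 of 6 sham pairs and 2 of 10 2 Gy pairs did not. Counting error near the background limits the precision of most probes.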

Additional observations from a re-analysis of the deposited data

Results flagged for a closer look

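In the groups of 4 or 5 samples, 3 values had 1 sample far from the others by Dixon's ratio, the gap to the nearest sample divided by the range of the group. There were 86 groups tested, and chance alone marks about 1 in 20. The ratio was 0.865 for miR-199a-3p in sham, where replicate 4 had 19.9 scaled counts and the nearest sample had 10.3. It was 0.879 for miR-489 in sham, where replicate 1 had 8.76 scaled counts and the nearest sample had 13.1. The mean of the 3 ligation negative controls gave 0.909 in sham, with 9.67 counts in replicate 1 and 6.33 in the nearest sample.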

How the results depend on the processing

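The counts of miRNAs that rose and fell, 20 and 1 with TMM and edgeR, moved by over 1.5 times in several settings. Those that rose numbered 2 with the ligation controls, 12 with the total count, 8 with a mean of at least 30 counts (of 14 tested), 4 with the negative control mean plus 2 SD subtracted (11 of the 20 were then at the floor of 1 in all 9 samples), 3 with the ligation covariate (all 17 others stayed above 0) and 0 with the exact permutation test (29 at an unadjusted p under 0.05). Those that fell numbered 24 with the 100 highest miRNAs, 0 with the hybridisation controls, 135 with the ligation controls, 82 with the total count, 4 without a filter, 0 with the ligation covariate, 0 with the exact permutation test and 2 at an unadjusted p. Leaving out 1 sample at a time gave 17 (without sham replicate 1) to 23 (without 2 Gy replicate 3) that rose and 1 that fell, and in them miR-466d-3p, miR-15a and miR-489 lost their call in at least 1 and miR-451, miR-223 and let-7g gained one without 2 Gy replicate 3, as given above. The ligation control ratio ran from 6.12 to 10.2 in those fits. Scaling to the ligation controls, where the median of all members was -3.01, turned these log2 fold changes below 0. They were -0.13 for miR-297c, -0.49 for miR-539, -0.51 for miR-377, -0.57 for miR-421, -0.76 for miR-664, -1.31 for miR-2183, -1.24 for miR-16, -1.33 for miR-450b-5p, -1.42 for miR-30b, -1.56 for miR-1839-3p, -1.75 for miR-338-5p, -1.62 for let-7e, -1.81 for miR-466g, -2.18 for miR-466d-3p, -1.93 for miR-1928, -2.0 for miR-1191, -2.21 for miR-15a and -2.32 for miR-489. Among those that had not passed, they were -1.60 for miR-451, -2.93 for miR-205, -3.07 for let-7f, -3.20 for miR-199a-3p, -2.34 for miR-223, -2.46 for miR-146a and -2.80 for miR-208a. The total count turned miR-205 to -0.51, let-7f to -0.62 and miR-199a-3p to -0.66. The cause was not tested. With the replicate number as a replicate block, 19 rose and 1 fell. The numbers did not pair the samples, since the deviations of same-numbered samples correlated at 0.015, -0.111, -0.0463 and -0.0394 and no sham sample correlated best with its own number.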
